A study of Mus musculus with 12 samples.

Results

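The p53 target genes are genes that the transcription factor p53 is known to activate, and 33 of them were chosen by name. Of these, 31 had a row under their symbol among the 22753 genes of the count table, and all 31 passed the filter on low counts, which kept 15179 genes. The symbols Tigar and Pidd1 had no row and are not analysed here. RNA was sequenced from mouse embryonic stem cells, kept in serum and leukemia inhibitory factor, of 2 clones numbered 10 and 4. Both clones came from Sphk1fl/fl Sphk2-/- mice, so every library lacks Sphk2 by its label, and all cells spent 48 hours in 6 uM (Z)-4-hydroxytamoxifen before sorting on Cre-GFP. The GFP-positive cells are labelled Sphk1-/- Sphk2-/- and the GFP-negative cells Sphk1fl/fl Sphk2-/-, with 3 libraries in each of 4 groups: clone 10 GFP-positive, clone 10 GFP-negative, clone 4 GFP-positive and clone 4 GFP-negative. GFP-positive and GFP-negative cells therefore differ by Sphk1 genotype and by Cre-GFP itself, which cannot be told apart here, and each clone is a single line. In 5 of 6 pairs of the same replicate number the GFP-positive library also carried a passage number 1 higher than its partner. The numbers were equal in clone 4 pair 1. Labelled passage and gate cannot be told apart in the other 5. From replicate 1 of clone 10 on, the labels rise by 1 from sample to sample across clones and gates, so they may not be true passages.

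Sphk1 and Sphk2 encode the kinases that make sphingosine 1-phosphate, a signalling lipid. p53, the product of Trp53, is held low by the ubiquitin ligase Mdm2. Stress blocks that degradation, and p53 then binds DNA at a response element made of a pair of similar half-sites and activates genes for cell-cycle arrest, apoptosis, DNA repair and its own inhibition. Mdm2 is itself such a target, which closes a feedback loop. Mouse embryonic stem cells hold much p53, which is linked there to differentiation, to apoptosis after DNA damage and to activation of Dux, a driver of genes of the 2-cell embryo.

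The sequences in front of these genes show where the letters of a p53 element lie close to the start of transcription. RefSeq windows on GRCm38.p6, running 250 bases before to 50 bases after a start, were at hand for 25 of the 33 listed genes, Tigar and Pidd1 included. The degenerate p53 half-site of 10 bases, which reads the same on both strands, was found in the windows of 11 of these 25 genes (44.0%), against 9.55% of all 27025 genes with a window. A pair of half-sites at most 13 bases apart was found in 1 member, Cdkn1a, and in 0.074% of all genes. A match is a description of the letters and not a measured binding site. The windows below are printed because they belong to members that changed: Mdm2 and Ckap2 hold a half-site, in capitals, which begins 186 and 203 bases before the start, whereas Btg2 and Plk2 hold none and are in lower case throughout. The Cdkn1a stretch is shown for the half-sites that the pattern paired, in capitals, of which the first begins 73 bases before the upstream start of that gene. In the window the second half-site is followed directly by tgacatgttc, which misses the pattern at its first base only and was not counted. The printed stretch ends before those bases, so it need not be the response element of the gene. The window at the other Cdkn1a start, chr17:29093519-29093818, held no half-site. Positions and strands follow each name, and every sequence runs 5′ to 3′.
Mdm2, chr10:117710709-117711008, minus strand: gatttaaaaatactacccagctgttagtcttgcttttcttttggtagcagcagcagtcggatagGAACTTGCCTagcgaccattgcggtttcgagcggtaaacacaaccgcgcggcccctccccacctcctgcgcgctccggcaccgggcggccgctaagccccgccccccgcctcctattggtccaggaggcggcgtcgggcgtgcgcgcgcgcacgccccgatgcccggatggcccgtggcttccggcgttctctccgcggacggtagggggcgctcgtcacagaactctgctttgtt
Ckap2, chr8:22185770-22186069, minus strand: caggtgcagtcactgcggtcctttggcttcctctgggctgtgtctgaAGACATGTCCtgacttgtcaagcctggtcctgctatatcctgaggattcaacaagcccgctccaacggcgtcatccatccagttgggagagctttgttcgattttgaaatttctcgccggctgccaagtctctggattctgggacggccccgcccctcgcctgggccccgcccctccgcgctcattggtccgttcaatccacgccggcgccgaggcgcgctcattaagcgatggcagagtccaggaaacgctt
Btg2, chr1:134079106-134079405, minus strand: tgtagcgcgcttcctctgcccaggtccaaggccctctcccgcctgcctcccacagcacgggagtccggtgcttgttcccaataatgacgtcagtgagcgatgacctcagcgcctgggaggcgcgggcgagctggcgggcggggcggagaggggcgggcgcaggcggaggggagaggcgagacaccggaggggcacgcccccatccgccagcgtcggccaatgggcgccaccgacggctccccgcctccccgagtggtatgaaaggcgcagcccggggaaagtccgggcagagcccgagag
Plk2, chr13:110394794-110395093, plus strand: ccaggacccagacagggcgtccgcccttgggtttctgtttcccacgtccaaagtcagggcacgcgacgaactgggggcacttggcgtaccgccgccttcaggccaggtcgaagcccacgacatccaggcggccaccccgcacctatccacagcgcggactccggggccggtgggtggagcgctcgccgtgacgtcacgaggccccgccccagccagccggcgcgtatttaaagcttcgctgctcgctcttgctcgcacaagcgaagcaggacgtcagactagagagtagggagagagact
Cdkn1a, chr17:29090906-29090937, plus strand: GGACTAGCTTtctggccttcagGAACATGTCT

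Libraries held between 12968916 and 34258395 counts. The clone 10 GFP-negative library of replicate 1 stood apart, with the fewest counts, the lowest share of mitochondrial counts (0.143%, against 0.594% to 2.32% in the other 11 libraries) and 15867 genes detected, so changes that its pair moved strongly are given without that pair beside the main value. Levels are normalised CPM, read counts scaled by the library size after TMM adjustment. Sphk1 was low in every library, 0.730 to 4.17 CPM, and Sphk2 1.16 to 8.95 CPM. Sphk1 did not pass the threshold (log2 change -0.61 within pairs over both clones, adjusted p = 0.166), and the table does not show which exons its counts came from, so the genotype labels could not be checked. All 10 embryonic stem cell markers were detected in every library, at 4702 to 13410 CPM in sum. Changes were tested in edgeR in a fit across all 12 libraries, and again within pairs, where a GFP-positive and a GFP-negative library of the same clone and replicate number were compared with each other. Gene expression varied together in such pairs, but also in some libraries of different clones. A gene was called at a Benjamini-Hochberg adjusted p under 0.05 over all 15179 genes.

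In clone 10, 7 p53 target genes rose in GFP-positive cells within pairs and none fell. They were the feedback genes Mdm2 and Trp53inp1, the growth regulators Btg2, Plk2 and Ckap2, and the apoptosis genes Pmaip1 and Perp, and their log2 changes ran between 0.62 and 1.58. Genes called higher made up 3.49% of all genes tested. The median log2 change of the 31 members was 0.30, with 25 of 31 above 0, against -0.01 and 49.0% of all genes. Across all libraries none of the 31 was called, and 0% of all genes were. There the same 7 genes had adjusted p-values between 0.142 and 0.734, and 7 members had an unadjusted p under 0.05, all higher (5.36% of all genes were higher at that p). DESeq2 across all libraries called 2 members in clone 10, Mdm2 and Plk2, and 1.86% of all genes as higher. In that edgeR fit the median of the members was 0.26, against -0.04 for all genes.

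The direction can be followed pair by pair. The median log2 ratio of the members was 0.34, 0.48 and 0.22 in clone 10 pairs 1, 2 and 3, where 22, 28 and 24 of 31 members were higher in the GFP-positive library. It was 0.23, 0.03 and 0.17 in clone 4 pairs 1, 2 and 3, with 20, 19 and 23 members higher. Clone 4 pair 2 thus had the lowest median. In all 3 clone 10 pairs 17 of 31 members were higher (54.8%), against 25.1% of all genes, and in all 3 clone 4 pairs 11 members were (35.5%), against 19.4%. In all 6 pairs 10 of 31 were higher (32.3%), against 8.71% of all genes: Ccng1, Trp53inp1, Pmaip1, Tnfrsf10b, Btg2, Zmat3, Eda2r, Aen, Ckap2 and Gtse1. Any log2 ratio above 0 was counted, however small. In clone 4 pair 2 Ccng1 was level, at 425.5 against 425.4 CPM, and Btg2, Zmat3 and Tnfrsf10b had ratios of 0.045, 0.048 and 0.052. In sum the 31 members reached 5076, 5732 and 5225 CPM in the clone 10 GFP-positive libraries of replicates 1, 2 and 3, against 3988, 3840 and 4020 CPM in the GFP-negative ones. These groups did not overlap.

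**Figure D1:**
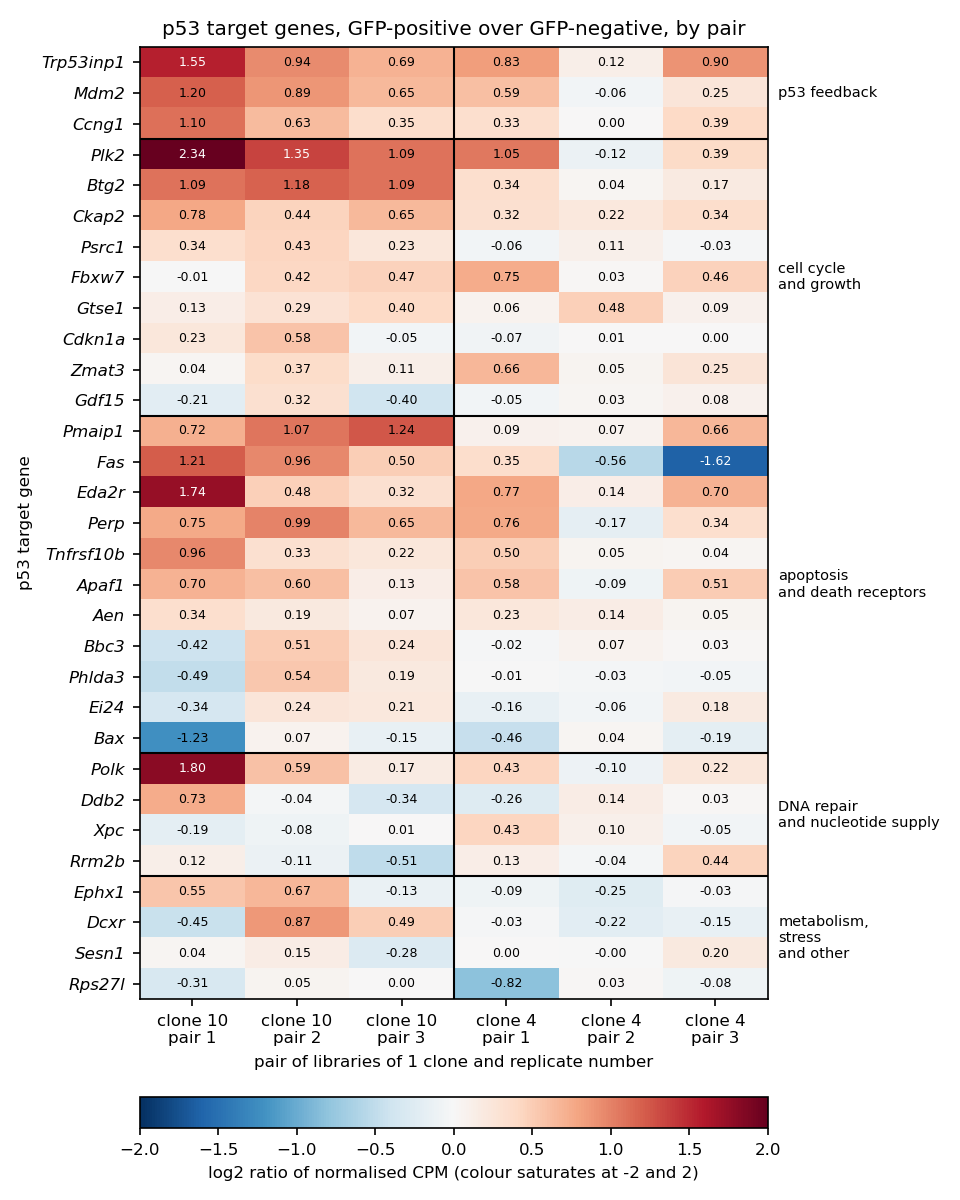
Log2 ratio of normalised CPM, GFP-positive over GFP-negative library, for each of the 31 measured p53 target genes (rows, grouped by role and ordered by their change in clone 10) in each of 6 pairs (columns). Plk2, Btg2, Trp53inp1 and Mdm2 were above 0.6 in all 3 clone 10 pairs, whereas clone 4 pair 2 was near 0 for most genes, with a median of 0.03.

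Among genes that act on p53 itself, Mdm2 (ENSMUSG00000020184, mm10 chromosome 10, 117688888 to 117710758, minus strand) had 509, 530 and 477 CPM in the clone 10 GFP-positive libraries, against 222, 287 and 305 CPM in the GFP-negative ones. The groups did not overlap, and the log2 change within pairs was 0.91 (SE 0.16, edgeR adjusted p = 0.0182). Without pair 1 it was 0.77 (adjusted p = 0.0229). In clone 4, Mdm2 had 460, 338 and 399 CPM in GFP-positive libraries, against 305, 352 and 337 CPM in GFP-negative ones, which overlap, and its change of 0.26 (SE 0.16) was not called.

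Trp53inp1, a stress-induced protein that promotes phosphorylation of p53 (ENSMUSG00000028211, mm10 chromosome 4, 11156431 to 11174379, plus strand), was at 349, 614 and 374 CPM in clone 10 GFP-positive libraries, against 119, 319 and 232 CPM in GFP-negative ones. All 3 GFP-positive libraries lay above all 3 GFP-negative ones, with a log2 change of 1.06 (SE 0.20, edgeR adjusted p = 0.0259). In clone 4 it had 296, 314 and 486 CPM in GFP-positive libraries, against 166, 290 and 260 CPM in GFP-negative ones. There too the groups did not overlap, and the change was 0.62 (SE 0.20), the smallest p of any member in clone 4, but its edgeR adjusted p was 0.512. Ccng1, cyclin G1, which brings a phosphatase to Mdm2, just missed the threshold in clone 10, with 484, 612 and 540 CPM in GFP-positive libraries, against 226, 395 and 423 CPM in GFP-negative ones. The groups did not overlap, and the log2 change was 0.69 (SE 0.16, edgeR adjusted p = 0.0501). Without pair 1 the change of Ccng1 was 0.49 (edgeR adjusted p = 0.0739).

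Of the 9 members that act on the cell cycle and growth, 3 rose in clone 10. Btg2, an antiproliferative protein that binds the CCR4-NOT deadenylase (ENSMUSG00000020423, mm10 chromosome 1, 134075170 to 134079120, minus strand), had 163, 134 and 162 CPM in GFP-positive libraries, against 76.6, 58.9 and 76.2 CPM in GFP-negative ones. The pairs were alike, at log2 ratios of 1.09, 1.18 and 1.09, and the change was 1.12 (SE 0.11, edgeR adjusted p = 0.00211), the smallest p of any member. In clone 4, Btg2 spread far more between replicates than between gates: it had 208, 60.7 and 110 CPM in GFP-positive libraries, against 164, 58.8 and 97.8 CPM in GFP-negative ones. The change there was 0.19 (SE 0.11) and was not called.

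Plk2, a polo-like kinase (ENSMUSG00000021701, mm10 chromosome 13, 110395044 to 110400844, plus strand), gave the largest change among the members called in clone 10. It had 303, 340 and 389 CPM in GFP-positive libraries, against 60.0, 133 and 183 CPM in GFP-negative ones, and the log2 change was 1.58 (SE 0.27, edgeR adjusted p = 0.0166). Pair 1 contributed most, with a log2 ratio of 2.34, against 1.35 in pair 2 and 1.09 in pair 3. Without pair 1 the change was 1.22 (adjusted p = 0.0192). Plk2 was low in clone 4, at 83.3, 66.5 and 96.9 CPM in GFP-positive libraries, against 40.2, 72.3 and 74.2 CPM in GFP-negative ones, which overlap.

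Ckap2, a protein of spindle microtubules (ENSMUSG00000037725, mm10 chromosome 8, 22168152 to 22185819, minus strand), had 155, 207 and 199 CPM in clone 10 GFP-positive libraries, against 90.3, 153 and 127 CPM in GFP-negative ones. The GFP-positive libraries lay above all the GFP-negative ones, with a log2 change of 0.62 (SE 0.11, edgeR adjusted p = 0.0218). In clone 4 its levels were 153, 158 and 226 CPM in GFP-positive libraries, against 123, 136 and 178 CPM in GFP-negative ones. The clone 4 groups overlapped, while each pair had the GFP-positive library higher (0.29, SE 0.11, not called).

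Cdkn1a, the cyclin-dependent kinase inhibitor p21 and the best known p53 target (ENSMUSG00000023067, mm10 chromosome 17, 29090979 to 29100722, plus strand), was not called in either clone. In clone 10 it had 172, 183 and 216 CPM in GFP-positive libraries, against 147, 122 and 224 CPM in GFP-negative ones. The highest of these 6 values was a GFP-negative library, and the change of 0.25 had a 95% interval between -0.06 and 0.56 (edgeR adjusted p = 0.270 within pairs). In clone 4 the pairs were nearly identical, with 232, 297 and 160 CPM in GFP-positive libraries, against 245, 295 and 160 CPM in GFP-negative ones (-0.02, 95% interval -0.33 to 0.29). Of Cdkn1a's annotated exon bases, 7.68% are shared with a gene on the other strand.

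The other members of this role group were not called. Psrc1, a microtubule-binding protein, had a log2 change of 0.34 in clone 10 (SE 0.11, edgeR adjusted p = 0.118). Gtse1, a microtubule protein that binds p53, had 0.27 in clone 10 and 0.21 in clone 4 within pairs. Fbxw7, which selects cyclin E and Myc for degradation, gave 0.29 in clone 10, or 0.44 without pair 1, and 0.42 in clone 4. Zmat3, an RNA-binding zinc-finger protein, gave 0.17 and 0.32. Gdf15, a secreted stress cytokine, had -0.10 in clone 10, or -0.05 without pair 1, and 0.02 in clone 4.

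Of the 11 measured members of apoptosis and death receptor signalling, 2 rose in clone 10. Pmaip1, the BH3-only protein Noxa (ENSMUSG00000024521), was at 380, 330 and 236 CPM in GFP-positive libraries, against 231, 157 and 100 CPM in GFP-negative ones. The lowest GFP-positive value was just above the highest GFP-negative one, and each pair differed by more, giving a log2 change of 1.01 (SE 0.16, edgeR adjusted p = 0.0126). In clone 4 replicate 1 was high in both gates: Pmaip1 had 481, 132 and 228 CPM in GFP-positive libraries, against 451, 126 and 144 CPM in GFP-negative ones. The change there was 0.27 (SE 0.16) and was not called.

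Perp, a tetraspan membrane protein of p53-dependent apoptosis and desmosomes (ENSMUSG00000019851, mm10 chromosome 10, 18845071 to 18857073, plus strand), had 95.1, 99.1 and 73.5 CPM in clone 10 GFP-positive libraries, against 56.4, 49.8 and 46.9 CPM in GFP-negative ones. The groups did not overlap (log2 change 0.80, SE 0.18, edgeR adjusted p = 0.0439). In clone 4 it had 95.9, 38.2 and 71.9 CPM in GFP-positive libraries, against 56.5, 43.0 and 56.9 CPM in GFP-negative ones. The replicate 2 library lay below its partner there, and the change was 0.31 (SE 0.18).

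**Figure D2:**
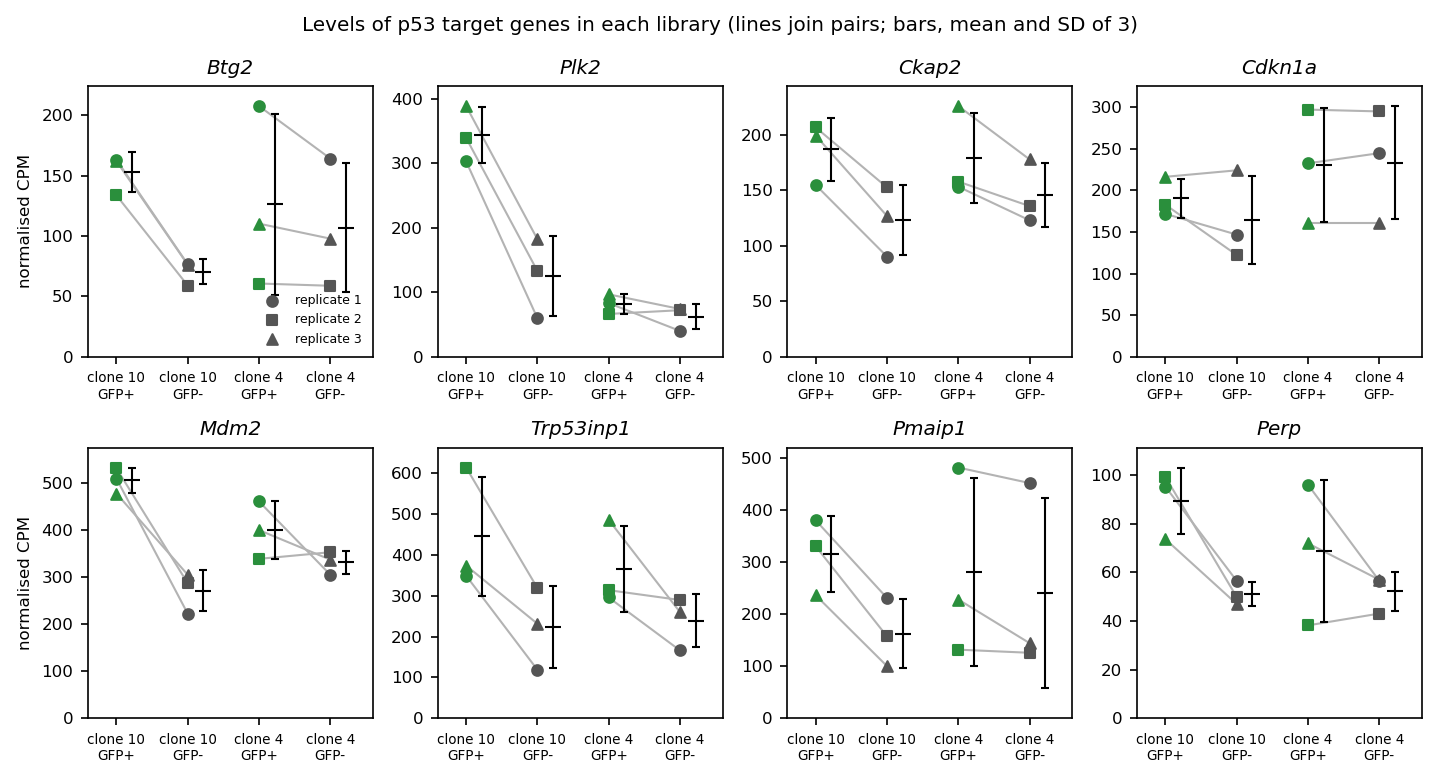
Normalised CPM (y axis, starting at 0) in each library of clone 10 and clone 4, GFP-positive in green and GFP-negative in grey, with lines joining the libraries of a pair and bars giving the mean and SD of 3 libraries. Plk2 lay at 303 to 389 CPM in clone 10 GFP-positive cells and at or below 183 CPM in every other library, whereas Cdkn1a overlapped between gates in both clones.

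No other apoptosis gene was called. The death receptor genes Eda2r, Tnfrsf10b and Fas had log2 changes of 0.82, 0.50 and 0.86 in clone 10, with edgeR adjusted p-values of 0.112, 0.131 and 0.210. Pair 1 gave Eda2r its largest ratio, 1.74, and without that pair the changes of these genes were 0.40, 0.27 and 0.72. Fas was barely detected, at 0.365 to 4.41 CPM, and its clone 4 change of -0.55 had an interval between -1.44 and 0.35. Apaf1, the scaffold of the apoptosome, gave 0.47 in clone 10 and 0.33 in clone 4. The nuclease gene Aen gave 0.20 in clone 10, or 0.13 without pair 1, and 0.14 in clone 4. Bbc3, the BH3-only protein Puma, gave 0.11 in clone 10 with all pairs and 0.37 without pair 1. Phlda3, a repressor of Akt, gave 0.08 with all pairs and 0.36 without pair 1, and Ei24, a membrane protein of the endoplasmic reticulum, 0.04 and 0.22. Bax, the pore-forming effector, gave -0.43 (edgeR adjusted p = 0.270). Bax had 281, 282 and 224 CPM in clone 10 GFP-positive libraries, against 656, 270 and 249 CPM in GFP-negative ones. The value of 656 CPM came from the library that stood apart, and without its pair the change was -0.04. Of the exon bases of Bax, 12.18% are shared with another gene.

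None of the 4 DNA repair and nucleotide supply genes was called, and their median log2 change in clone 10 was 0.01. Polk, a translesion DNA polymerase, had 56.0, 71.5 and 81.1 CPM in clone 10 GFP-positive libraries, against 16.1, 47.4 and 72.1 CPM in GFP-negative ones, which overlap. Its change was 0.82 (SE 0.27, edgeR adjusted p = 0.122), and 0.38 without pair 1. The damage-recognition gene Ddb2 gave 0.10 with all pairs and -0.19 without pair 1, so its direction rested on that pair. Xpc, of the same role, gave -0.09 with all pairs and -0.04 without pair 1, and Rrm2b, a ribonucleotide reductase subunit, -0.17 and -0.31. Ddb2 shares 23.83% of its exon bases with Acp2 on the opposite strand.

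The 4 measured genes of metabolism and other roles were not called either. Ephx1, an epoxide hydrolase, and Dcxr, a carbonyl reductase, had log2 changes of 0.36 and 0.30 in clone 10, against -0.12 and -0.13 in clone 4. Dcxr differed in sign between the clone 10 pairs, with ratios of -0.45, 0.87 and 0.49 in pairs 1, 2 and 3, and without pair 1 its change was 0.67 (edgeR adjusted p = 0.0261). Sesn1, a sestrin that restrains mTORC1, gave -0.03 with all clone 10 pairs and -0.06 without pair 1. Rps27l, a ribosomal protein paralogue, gave -0.09 in clone 10, or 0.02 without pair 1, and -0.29 in clone 4. Per kilobase of exon, averaged over the 12 libraries, levels of the 31 members spanned 0.94 CPM for Fas and 252 CPM for Rps27l, and the 7 genes called in clone 10 lay between 33.4 CPM for Perp and 91.3 CPM for Pmaip1.

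In clone 4 no p53 target gene was called in either fit. Within pairs the higher calls made up 0.0725% of all genes, and across all libraries 0% of genes were called. The members' median log2 change was 0.18 within pairs, with 22 of 31 above 0, against 0.00 and 50.8% of all genes. An unadjusted p under 0.05 was reached by 3 members, all higher: Trp53inp1 (0.62), Ckap2 (0.29) and Fbxw7 (0.42). Of all genes 4.12% were higher at that p, and the smallest edgeR adjusted p was 0.512. DESeq2 and limma-voom also called 0 members in clone 4. Summed over the 31 members, clone 4 GFP-positive libraries reached 4785, 3967 and 4740 CPM, against 4269, 3850 and 3974 CPM in GFP-negative ones. In each pair the GFP-positive sum was the larger, but the groups overlapped.

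**Figure D3:**
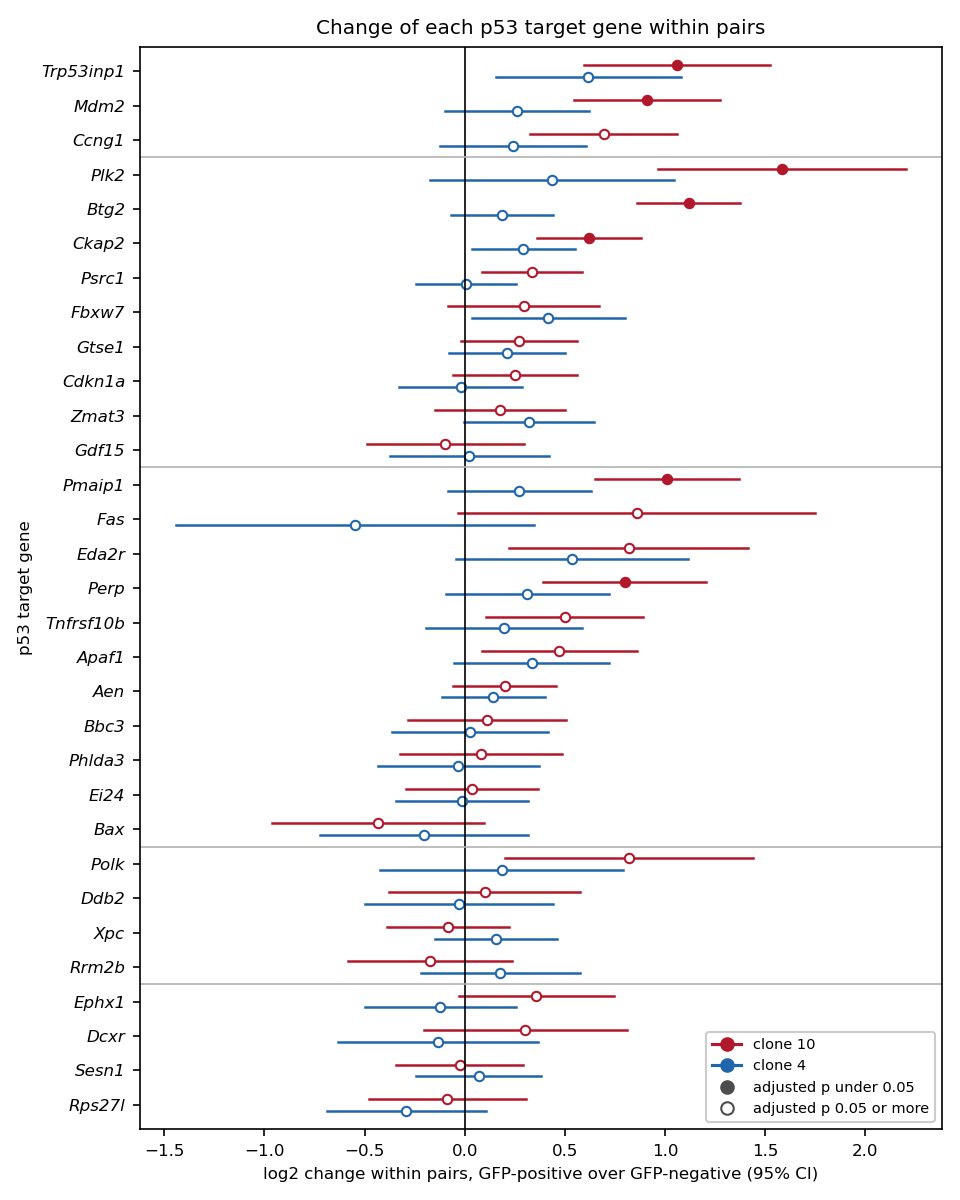
Log2 change within pairs, GFP-positive over GFP-negative, with its 95% interval (x axis) for each measured p53 target gene (rows, grouped by role), clone 10 in red and clone 4 in blue. Filled points passed an edgeR adjusted p of 0.05: 7 genes in clone 10 and none in clone 4.

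Taking the mean of both clones within pairs, 6 members rose and none fell, where 2.51% of all genes were called higher. They were Btg2 (log2 change 0.65, SE 0.08, edgeR adjusted p = 0.00374), Trp53inp1 (0.84, SE 0.14), Pmaip1 (0.64, SE 0.11), Ckap2 (0.46, SE 0.08), Plk2 (1.01, SE 0.19) and Mdm2 (0.59, SE 0.11), with adjusted p-values up to 0.0309. Perp had 0.56 (adjusted p = 0.0519). The median of the 31 members was 0.17, with 28 above 0, against 0.00 and 50.4% of all genes. Across all libraries none was called, where 0.158% of all genes were, and 7 members had an unadjusted p under 0.05, all higher (4.82% of all genes were). The smallest edgeR adjusted p there was 0.136, and DESeq2 called 2 members, Mdm2 and Plk2, and 1.82% of all genes as higher. These counts depended on single pairs. Without clone 10 pair 1 the mean called 10 members and clone 10 called 8, and without pair 2 they called 4 and 3. Without clone 10 pair 3 they called 3 and 2, and without clone 4 pair 1, pair 2 or pair 3 the mean called 1, 6 and 1 and clone 10 called 7, 7 and 4. Over these 6 removals the share of all genes called higher ran between 0.853% and 3.17% in clone 10 and between 0.625% and 3.72% for the mean. Btg2 was called in all 6 of these removals, in clone 10 and in the mean, and Plk2 in all 6 in clone 10 and in 4 of 6 in the mean. Mdm2, Ckap2 and Pmaip1 were called in 4 of 6 in clone 10 and in 2 of 6 in the mean. Trp53inp1 was called in 3 of 6 in clone 10 and in 4 of 6 in the mean, and Perp in 3 of 6 in clone 10.

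The changes of the 2 clones were not shown to differ. For clone 10 minus clone 4 within pairs, 0 of 31 members were called, where 0% of all genes were, and 5 members had an unadjusted p under 0.05, all with a larger change in clone 10, as 4.72% of all genes had. Btg2 came closest, with a difference of 0.93 in log2 change (95% interval 0.57 to 1.29, edgeR adjusted p = 0.352), and DESeq2 with the same pairs called this gene, alone among the members (adjusted p = 0.000576), and 0.336% of all genes as higher. The differences of Pmaip1, Plk2 and Mdm2 were 0.74, 1.15 and 0.65, with intervals between 0.23 and 1.24, between 0.29 and 2.01 and between 0.14 and 1.16. The interval for Trp53inp1 ran between -0.21 and 1.09, and that for Cdkn1a between -0.16 and 0.71, so neither similar nor different responses were shown for them.

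Set against each other in the same gate, the clones differed in 1 member. Replicates 2 and 3 carried passage numbers 17 to 20 in clone 10 and 13 to 16 in clone 4. Clone and labelled passage therefore cannot be told apart in those replicates. In GFP-positive cells Plk2 was higher in clone 10 than in clone 4 by 2.06 on the log2 scale (SE 0.37, edgeR adjusted p = 0.0314), where 0.83% of all genes were called higher. Its levels of 303 to 389 CPM in clone 10 and 66.5 to 96.9 CPM in clone 4 did not overlap. The call was lost in 5 of the 12 fits that left out a library, namely without clone 10 GFP-positive replicate 1 or 3, clone 10 GFP-negative replicate 2, or clone 4 GFP-positive replicate 2 or 3. In GFP-negative cells no member was called, where 0.0461% of all genes were, and 2 members had an unadjusted p under 0.05, both higher in clone 10, as 5.7% of all genes were. Plk2 was at 60.0, 133 and 183 CPM in clone 10, against 40.2, 72.3 and 74.2 CPM in clone 4, with a difference of 1.01 (edgeR adjusted p = 0.306).

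Trp53 itself was not called. In clone 10 it had 300, 429 and 261 CPM in GFP-positive libraries, against 566, 466 and 303 CPM in GFP-negative ones. In clone 4 it had 332, 191 and 406 CPM in GFP-positive libraries, against 549, 180 and 448 CPM in GFP-negative ones. The GFP-positive library was lower in 5 of 6 pairs, and the mean log2 change within pairs was -0.34 (SE 0.14, edgeR adjusted p = 0.174). Without clone 10 pair 1 it was -0.22 (adjusted p = 0.263).

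Of 23 genes that regulate p53 or the kinases that activate it, 22 were tested. Within pairs 1 fell over both clones and none rose, where 129 of all 15179 genes were called lower and 2.51% higher. The 1 that fell was Cdkn2a, the source of Arf, the inhibitor of Mdm2, with a log2 change of -0.60 (SE 0.09, edgeR adjusted p = 0.0107). Its call was lost without clone 10 pair 3, clone 4 pair 1 or clone 4 pair 3 (edgeR adjusted p = 0.0518, 0.0689 and 0.0755). Ppm1d, the phosphatase Wip1 and itself a p53 target, had 0.33 (SE 0.08, edgeR adjusted p = 0.0674). Mdm4, the partner of Mdm2, had 0.50 (SE 0.23) over both clones and 0.23 without clone 10 pair 1, and in clone 10 alone 0.54 with all pairs and -0.002 without pair 1. The damage kinases Atm and Atr had 0.42 and 0.12 over both clones, and 0.23 and 0.06 without clone 10 pair 1. None of these was called. The median of the list was 0.08.

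A further 35 p53 targets, none of them among the 33, gave 34 tested genes. Within pairs 1 rose over both clones and none fell: Icam1, an adhesion molecule, at 0.38 (SE 0.08, edgeR adjusted p = 0.0385), where 2.51% of all genes were called higher. In clone 10, where 3.49% of all genes were, 2 rose, Icam1 at 0.54 and Igfbp3, a binding protein of insulin-like growth factors, at 1.74 (SE 0.37, edgeR adjusted p = 0.0384). Without pair 1 Igfbp3 was not called (1.37, adjusted p = 0.131), nor without clone 10 pair 3 or clone 4 pair 2 or 3 (0.2, 0.0632 and 0.051). Icam1 kept its calls only when clone 10 pair 1 was the pair left out. Leaving out any other pair gave Icam1 an edgeR adjusted p of 0.091 to 0.182 over both clones and 0.0525 to 0.156 in clone 10. In clone 4 none was called. The list's median log2 change was 0.18 in clone 10 and 0.02 in clone 4, and the GFP-positive library had the larger sum of CPM in 1 of 3 clone 10 pairs and 2 of 3 clone 4 pairs. Averaged as log2 CPM, which weights the genes equally, the list was higher in 3 of 3 clone 10 pairs and 1 of 3 clone 4 pairs.

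Markers of other states moved with the gate as well. Over both clones within pairs, 129 of all 15179 genes were called lower and 2.51% higher. Of 23 fibroblast markers 22 were tested, and 7 of these fell and none rose. Their summed level was 1639, 1824 and 2709 CPM in clone 10 GFP-positive libraries, against 1288, 2246 and 4074 CPM in GFP-negative ones, and 1875, 2395 and 1618 CPM in clone 4 GFP-positive libraries, against 1837, 3402 and 1898 CPM in GFP-negative ones. At most 1 of the 23 was at 0 in any library, and the GFP-positive sum was lower in 2 of 3 pairs of each clone. Averaged as log2 CPM the list was lower in 2 of 3 clone 10 pairs and in 3 of 3 clone 4 pairs, with differences of -0.83 to 0.64 and of -1.13 to -0.82. Of 34 G2/M genes, which share no name with the members, 7 rose and none fell over both clones, led by Hmmr (0.77, SE 0.11, edgeR adjusted p = 0.00741). In clone 10 alone 1 G2/M gene was called higher, where 3.49% of all genes were. In clone 4 alone 0 were, where 0.0725% of all genes were. The GFP-positive over GFP-negative ratio of the G2/M sums was 1.10 to 1.32 in the clone 10 pairs and 1.19 to 1.54 in the clone 4 pairs. Ckap2, Gtse1 and Psrc1 are also genes of dividing cells.

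Genes of the 2-cell embryo gave the most calls of the lists compared here. The lists were chosen with earlier results of these data known, so this rank is a description and not a test. Higher calls within pairs made up 2.51% of all genes over both clones, 3.49% in clone 10 and 0.0725% in clone 4. Of the 19 tested genes of the 2-cell embryo, 18 rose over both clones within pairs, 19 in clone 10 and 5 in clone 4. Their sum was 5426, 1209 and 3430 CPM in clone 10 GFP-positive libraries, against 310, 146 and 117 CPM in GFP-negative ones, and 363, 49.4 and 39.5 CPM in clone 4 GFP-positive libraries, against 26.2, 5.74 and 10.2 CPM in GFP-negative ones. The gates did not overlap in either clone. In bulk RNA, fewer cells of a type and less RNA per cell cannot be told apart, and the part of these markers in the changes of the p53 target genes was not tested.

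**Figure D4:**
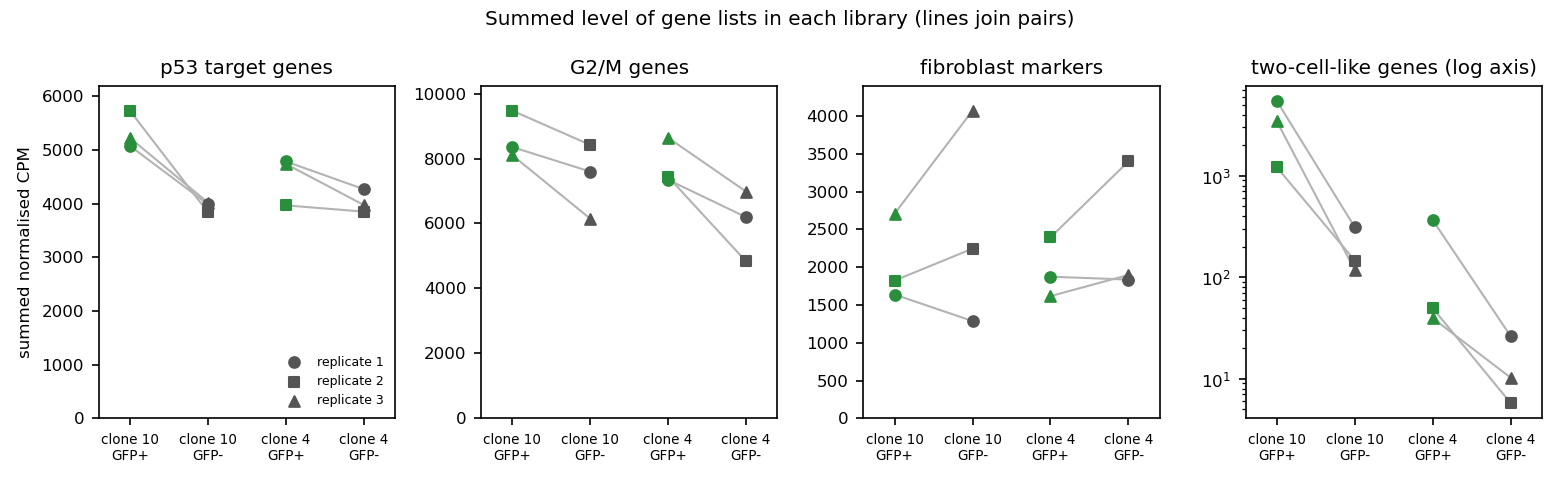
Summed normalised CPM (y axis, log scale for the genes of the 2-cell embryo) of 4 gene lists in each library, GFP-positive in green and GFP-negative in grey, with lines joining the libraries of a pair. In clone 10 the p53 target genes reached 5076 to 5732 CPM in GFP-positive cells and 3840 to 4020 CPM in GFP-negative cells.

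In the authors' deposited table for clone 10, 3 of the 31 members passed an adjusted p of 0.05, all higher in GFP-positive cells, among 418 of 15479 genes with an adjusted p (2.7%); 29 members had one, Bax and Rps27l having none. Per the authors' deposited table these were Btg2 (log2 change 1.00, adjusted p = 0.000456), Mdm2 (0.81, adjusted p = 0.00802) and Plk2 (1.15, adjusted p = 0.0289). In the authors' deposited table for clone 4, 0 of the 29 members with an adjusted p passed, all but Gdf15 and Rps27l, among 8 of 13352 genes (0.0599%).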

How the data were processed

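Mouse embryonic stem cell RNA was sequenced from TruSeq v2 libraries in 12 samples, per the labels' protocols. The authors deposited raw counts per gene, whole numbers without normalization. The submitters' processing notes name mm10, STAR 2.3.0e, HTSeq 0.6.0, DESeq2 and DESeq. Which annotation release and strand setting were used is not given in the sources used here, and overlapping genes on opposite strands cannot be told apart. The authors also deposited, per the file headers, log2 fold changes, their standard errors and adjusted p-values for each clone. Their scaling was not repeated here.

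The 33 members and all gene lists were chosen with earlier results of these data known. Genes given in every library were Cdkn1a, Mdm2, Trp53 and the members called in either fit, by a written rule. Polk, Bax and Ccng1 were added after their values were seen. Other genes of a list were chosen by smallest p within pairs, or, for Mdm4, Atm and Atr, for their role. Role groups were drawn up from general knowledge.

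Counts were tested in R 4.3.3 with edgeR 4.0.16 (robust quasi-likelihood F test, TMM, limma 3.58.1). Genes were kept at a CPM equal to 10 counts in a library of median size, in 3 libraries, with 15 counts in total, leaving 15179. The fit across all libraries had a term per group and 8 residual degrees of freedom. A second fit added a block for the clone-and-replicate pair (4 residual degrees). Same-numbered libraries of a clone deviated together from their group means (correlations 0.548 to 0.822 in 6 pairs), so the numbers were read as pairs. Differently numbered libraries of a clone gave -0.541 to -0.228, but deviations cancel out within a group, which by itself pushes these values down. Libraries of different clones gave -0.425 to 0.588 with the same number and -0.448 to 0.683 with different numbers. Such covariation was therefore not confined to the pairs. With the block the biological coefficient of variation was 0.175, and 0.389 without. Both tests were run on simulated data with a built-in effect of the pair. That check therefore cannot show whether the replicate numbers are true pairs. SE is the log2 change over the square root of F. Pair ratios used a pseudocount of 0.05 CPM.

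Nothing in the labels says that replicates were separate cultures, so p-values measure only the spread between these samples, which may be technical. Labelled passages ran between 11 and 20 and may not be true passages. Alternatives were DESeq2 1.42.0, limma-voom, other scaling and filters, passage as a covariate, each clone's libraries alone, and leaving out each library or pair. Exon lengths and overlaps came from GENCODE M21, sequences from RefSeq.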

Additional observations from a re-analysis of the deposited data

How the results depend on the processing

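The replicate block changed the calls: 7 p53 target genes were called in clone 10 and 6 for the mean of both clones with it, and 0 without it. Higher calls made up 3.49% and 2.51% of all genes with the block, and 0% and 0.152% without it. Without the block, DESeq2 called 2 in clone 10 and 2 for the mean, where 1.86% and 1.82% of all genes were called higher. Passage as a covariate called 1 in clone 10, where 0.56% of all genes were. With the block, DESeq2 called 10 for the mean and 1 for the difference between clones, where 5.92% and 0.336% of all genes were called higher. The libraries of clone 10 alone gave 3, where 1.8% of all genes were. Leaving out 1 pair each gave 2 to 8 calls in clone 10 and 1 to 10 for the mean. Of all genes 0.853% to 3.17% and 0.625% to 3.72% were then called higher. Leaving out 1 library each gave 0 to 2 calls for clone 10 against clone 4 in GFP-positive cells, where 0% to 1.45% of all genes were called higher. The medians in clone 10 were then 0.26 to 0.48. Without the block, signs were followed only for those 7 genes and Cdkn1a, without Cdkn1a in clone 4. Among them, leaving out 1 library each turned the sign of 3 uncalled changes, and the other members were not counted. In clone 4, Btg2 ranged between -0.32 (GFP-positive replicate 1 left out) and 0.69 (without GFP-negative replicate 1), with -0.05 without GFP-negative replicate 2. Pmaip1 in clone 4 ranged between -0.42 and 1.05 for the same removals, with -0.09 and -0.04 without GFP-negative replicates 2 and 3. For the mean, Cdkn1a ranged between -0.02 (clone 4 GFP-positive replicate 2 left out) and 0.24 (clone 10 GFP-negative replicate 3 left out), and -0.01 was found on leaving out clone 4 GFP-negative replicate 3. Of 268 values within pairs of the 7 called genes and Cdkn1a, without Cdkn1a in clone 4, 33 lost a call, 5 gained one and none changed sign. Over all 31 members, leaving out 1 pair turned the sign of 7 in clone 10, 5 in clone 4 and 10 for the mean. For the difference between clones it turned 14. None of these was called, and Cdkn1a was among those turned in clone 4. The cause was not tested. All 31 members were tested in each setting.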
